A study of Rattus norvegicus with 16 samples.

Results

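The transcripts described here encode 9 families of pre-mRNA splicing factors in rat pancreatic islets. Within these families members were taken by gene symbol alone: every probe set annotated with a single symbol that begins with Srsf, Hnrnp, Sf3a, Sf3b, Snrp, U2af, Luc7l or Prpf, or that is exactly Clk1, Clk2, Clk3 or Clk4. A probe set is a group of short probes that together read 1 stretch of a transcript. The rule found 111 probe sets of 68 genes among 31042 non-control probe sets on the array, of which 20826 carry a single symbol. Of these, 108 probe sets of 67 genes were bright enough to be tested. The 3 left out were the only single-symbol probe set of Srsf3 and 1 probe set each of Srsf10 and U2af1l4. Srsf7-ps4 is annotated as a pseudogene, and 8 further probe sets that name a family member together with other symbols were not counted.

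Islets came from male Wistar rats of 180 to 200 g. All groups first spent 1 week after isolation in RPMI without serum, which held bovine serum albumin at 5 g/l and glucose at 10 mmol/l. Glucose was then set to 2, 5, 10 or 30 mmol/l for 18 h, with 1000 islets for each condition, and 4 Affymetrix Rat230_2 arrays were hybridised per concentration, 16 in all. The labels number the replicates 1 to 4 without saying whether each number is a separate set of rats, so p-values measure the spread between these samples, which may be technical.

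Pre-mRNA splicing removes introns in steps. The U1 particle marks the start of an intron, U2 with its SF3A and SF3B complexes and the U2AF heterodimer marks its end, and the tri-snRNP of U4, U6 and U5, which holds many of the Prpf proteins, then completes the catalytic machine. SR proteins, encoded by the Srsf genes, bind exons and mostly promote their inclusion. The hnRNP proteins coat nascent transcripts and often act against SR proteins, and the CLK kinases phosphorylate SR proteins and release them from nuclear speckles. In beta cells glucose is both the fuel and the signal for insulin production.

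Signals are the authors' scaled intensities. Every array had a trimmed mean between 150.04 and 150.05, and array medians lay between 41.5 and 48.1. Each concentration was run on 1 fluidics module of its own on every scan day, so module and concentration cannot be told apart. All 4 concentrations were present on each of the 3 scan days. The ratio of 3′ to 5′ probe sets of Actb, a sign of RNA integrity or labelling length, was 1.58 to 1.89 at 2 mmol/l, 1.98 to 2.16 at 5, 1.93 to 2.24 at 10 and 1.93 to 2.13 at 30 mmol/l. The 2 mmol/l arrays were thus lower than all others on this measure, and its part in the differences from 2 mmol/l was not tested. The same ratio for Gapdh was 0.77 to 0.93 at 2 mmol/l, 0.75 to 0.89 at 5, 0.72 to 0.85 at 10 and 0.82 to 0.93 at 30 mmol/l. On Gapdh the 2 mmol/l arrays thus overlapped those of each other concentration. Markers of islet cells were bright, and 7 of 7 tested beta cell markers passed the F-test: their summed signal was 25431 to 29618 at 2 mmol/l, 29109 to 35099 at 5, 37279 to 48836 at 10 and 36153 to 43298 at 30 mmol/l. At 30 over 2 mmol/l 4 of these 7 were higher, 2 lower and 1 did not pass. The mean summed signal of alpha cell markers was 8844 at 2, 12488 at 10 and 11497 at 30 mmol/l. That of delta cell markers was 6278, 9502 and 8485. The F-test called 1 of 4 alpha and 2 of 4 delta cell markers. All 10 acinar markers were below the level cut in these arrays, with summed signals between 84.9 and 148.1. Of 2 tested duct markers Krt7 fell and Krt19 passed only with the replicate block, with a summed duct signal of 1375 to 1696 at 2 mmol/l, 1521 to 1719 at 5, 1015 to 1150 at 10 and 848 to 906 at 30 mmol/l. Endothelial and leukocyte markers passed the F-test in 1 of 4 and 1 of 3 cases (2 of 3 leukocyte markers with the block), stellate markers in 0 of 6 (4 of 6 with the replicate block). The part of these shifts in the results below was not tested, and in whole islets fewer cells of a type and less RNA per cell cannot be told apart.

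The splicing factor transcripts differed between the glucose groups in both directions. Fitted across all 18625 tested probe sets with limma, 57 of 108 member probe sets (52.8%) passed the F-test over the 4 concentrations at an adjusted p under 0.05, against 41.8% of all tested probe sets. The change lay mainly between 5 and 10 mmol/l. At 5 over 2 mmol/l 8 members passed, 3 higher and 5 lower (2.6% of all probe sets passed, 1.66% higher and 0.94% lower). At 10 over 5 mmol/l 30 passed, 19 higher and 11 lower (21.1% of all, 10.0% higher and 11.1% lower), and centring each array on its median gave 15 higher and 14 lower. At 30 over 10 mmol/l 5 members passed, all of them higher (6.82% of all, 3.26% higher and 3.56% lower), while none was lower in limma without a block and 3 were lower at an unadjusted p under 0.05. With the replicate number as a block the F-test count became 72 (55.2% of all). The steps became 21 members at 5 over 2 mmol/l (9.87% of all), 48 at 10 over 5 mmol/l (31.7%) and 15 at 30 over 10 mmol/l (14.8%), 14 of them higher and 1 lower, Hnrnpu 1370171_at. Over the whole range, 30 over 2 mmol/l, 49 members passed, 30 higher and 19 lower, beside 36.9% of all probe sets, 16.3% higher and 20.6% lower, and with the block 58 passed (46.3% of all). Several members can read 1 gene. With each gene standing for its brightest probe set, 14 of 67 genes were higher and 17 lower (20.9% and 25.4%). These shares lie near those of all genes, 17.2% higher and 25.0% lower. In 40 of those 49 members called without the block the 4 signals at 30 mmol/l did not overlap the 4 at 2 mmol/l (30.7% of all tested probe sets passed without overlap). In 49 of 49 the direction was the same in 4 of 4 replicate numbers. The same arrays gave the calls, so this is no separate support.

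The median member differed by 0.05 (log2) at 10 over 5 mmol/l and by 0.02 at 30 over 2 mmol/l, beside 0.02 and -0.03 for all tested probe sets. The set therefore had no common direction, and the families parted. At 30 over 2 mmol/l 9 Srsf probe sets were higher and 1 lower of 18 tested (50% and 5.56%). Hnrnp had 14 higher and 5 lower of 31 (45.2% and 16.1%). Luc7l had 3 higher and 1 lower of 7 (42.9% and 14.3%), and Snrp 3 higher and 1 lower of 11 (27.3% and 9.09%). Of all tested probe sets 16.3% were higher and 20.6% lower. The 18 Srsf probe sets read 10 genes and the 31 of Hnrnp 17. All higher Srsf probe sets but that of the annotated pseudogene Srsf7-ps4 were of Srsf1, Srsf2, Srsf5 and Srsf6, and all higher Luc7l ones were of Luc7l3. The Clk kinases had 3 lower of 4 (75%) and the Prpf group 6 lower of 19 (31.6%). In either family 0 were higher in limma, at an unadjusted p under 0.05 as well. With the replicate block Snrp had 4 higher and 3 lower, Hnrnp 16 higher and 5 lower, Clk 4 lower and Prpf 7 lower. Among all 18625 tested probe sets the block gave 3847 higher and 4768 lower. Median centring kept each of the counts without the block but that of Hnrnp, which became 13 higher and 5 lower, and quantile normalization gave Hnrnp 9 higher and 7 lower.

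**Figure D1:**
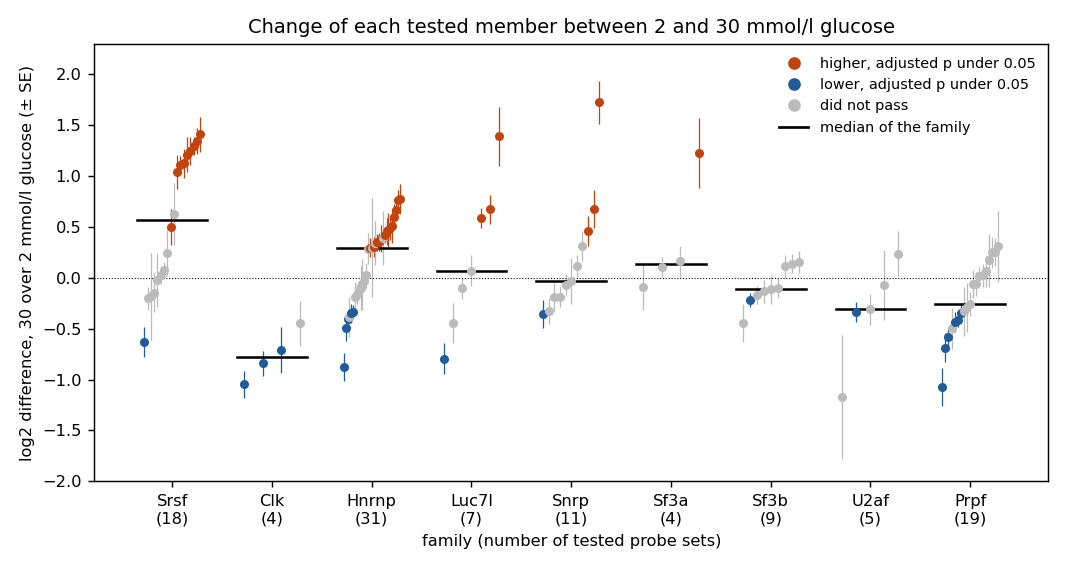
Log2 difference of each tested member probe set at 30 over 2 mmol/l glucose, with its standard error, by family, the number of tested probe sets in brackets. Orange points passed as higher, blue as lower, grey did not pass, and the black line is the family median: the Srsf points reach from -0.63 to 1.41, while the 4 Clk points lie below 0.

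Among the SR proteins, Srsf1, Srsf2, Srsf5 and Srsf6 rose, and each of their 8 tested probe sets passed at 10 over 5 mmol/l (10.0% of all probe sets passed as higher). Srsf6 had the smallest F-test p of all members. Its probe set 1371999_at read 142.2, 144.3, 168.4 and 163.5 in replicates 1 to 4 at 2 mmol/l, 202.6, 219.6, 224.3 and 223.7 at 5, 379.9, 426.7, 401.4 and 424 at 10, and 409.6, 368.3, 355.2 and 382.5 at 30 mmol/l. The 4 arrays of each of the lower concentrations stood clear of those of the next, and 10 and 30 mmol/l overlapped. The fit gave 1.41-fold at 5 over 2 mmol/l (log2 0.50 ± 0.09 SE, limma adjusted p = 0.0080) and 1.87-fold at 10 over 5 mmol/l (0.91 ± 0.09, adjusted p = 1.1e-06), and 2.45-fold at 30 over 2 mmol/l (1.30 ± 0.09, adjusted p = 4.8e-09). The 2 other Srsf6 probe sets were 2.66-fold (1383466_at) and 2.16-fold (1372075_at) higher at 30 over 2 mmol/l. SRSF6 is an exon-binding splicing activator.

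Srsf1 encodes the founding SR protein, which acts in splicing, export and translation. On 1371581_at the signals were 395.2, 301.1, 306.7 and 292.9 at 2 mmol/l, 464.9, 391.6, 499.5 and 352.6 at 5, 800.1, 647, 790.8 and 638.1 at 10, and 876.9, 724, 942.7 and 744.8 at 30 mmol/l. All arrays at 10 and 30 mmol/l were above all arrays at 2 and 5 mmol/l. At 10 over 5 mmol/l the gene was 1.69-fold higher (log2 0.76 ± 0.13, adjusted p = 0.00034) and at 30 over 2 mmol/l 2.54-fold (1.35 ± 0.13, adjusted p = 2.7e-07). The dimmer Srsf1 probe set, 1374072_at, was 2.31-fold higher at 30 over 2 mmol/l.

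Srsf2 passed both at 10 over 5 and at 30 over 10 mmol/l. It encodes an SR protein also named SC35. Probe set 1371838_at gave 812.1, 576.3, 534.9 and 600.3 at 2 mmol/l, 670.2, 483.5, 616.4 and 656.5 at 5, 1159, 837.5, 1086.9 and 1058.5 at 10, and 1539.3, 1286, 1688.4 and 1429.6 at 30 mmol/l. The 2 lower concentrations overlapped, and both 10 and 30 mmol/l stood clear of the group before. It was 1.71-fold higher at 10 over 5 mmol/l (log2 0.77 ± 0.14, adjusted p = 0.00044) and 1.44-fold at 30 over 10 mmol/l (0.52 ± 0.14, adjusted p = 0.024). A second probe set, 1371839_at, was 1.46-fold higher at 30 over 10 mmol/l (0.55 ± 0.14, adjusted p = 0.026). The call at 30 over 10 mmol/l was lost without any one of 3 arrays for 1371838_at and of 4 arrays for 1371839_at, with adjusted p up to 0.0851 and 0.0798, and for both with no level filter (0.0585 and 0.0507). Their log2 differences at that step were not tested against those of Srsf1 or Srsf6.

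Srsf5 averaged 588 ± 140 at 2 mmol/l, 769 ± 157 at 5, 1130 ± 187 at 10 and 1185 ± 141 at 30 mmol/l (SD, n = 4 each). It was 2.05-fold higher at 30 over 2 mmol/l (log2 1.04 ± 0.17, adjusted p = 8.3e-05). Its step at 10 over 5 mmol/l (1.48-fold, adjusted p = 0.021) missed the threshold with median centring (0.0656) and without any one of 3 arrays (up to 0.0827). Srsf4 went the other way, at 440 ± 23.7 at 30 mmol/l and 704 ± 208 at 2 mmol/l (log2 -0.63 ± 0.15, adjusted p = 0.0025), and its 2 mmol/l arrays ranged from 457.7 to 947.7 and overlapped those at 30 mmol/l. Srsf9 averaged 598 ± 55.5 at 30 mmol/l and 586 ± 49.4 at 2 mmol/l and did not pass (adjusted p = 0.83), and neither of the 2 Srsf11 probe sets passed in any step (with the replicate block 1368212_at passed at 10 over 5 mmol/l, adjusted p = 0.032).

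Srsf10 encodes an SR protein known as a splicing repressor that is switched by dephosphorylation. Its brightest probe set, 1382052_at, read 274.3, 378.8, 271.5 and 300.1 at 2 mmol/l, 162.3, 172.3, 183.9 and 180.7 at 5, 209.2, 202.5, 238 and 211.9 at 10, and 248.8, 237.2, 277.8 and 297.6 at 30 mmol/l. The 5 mmol/l arrays were the lowest and overlapped no other concentration. It was 1.74-fold lower at 5 over 2 mmol/l (log2 -0.80 ± 0.11, adjusted p = 0.0015), and the mean of 2 and 30 mmol/l exceeded that of 5 and 10 mmol/l by 0.55 ± 0.08 (adjusted p = 0.00045). None of the 3 other tested Srsf10 probe sets, which are dimmer, passed the F-test.

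**Figure D2:**
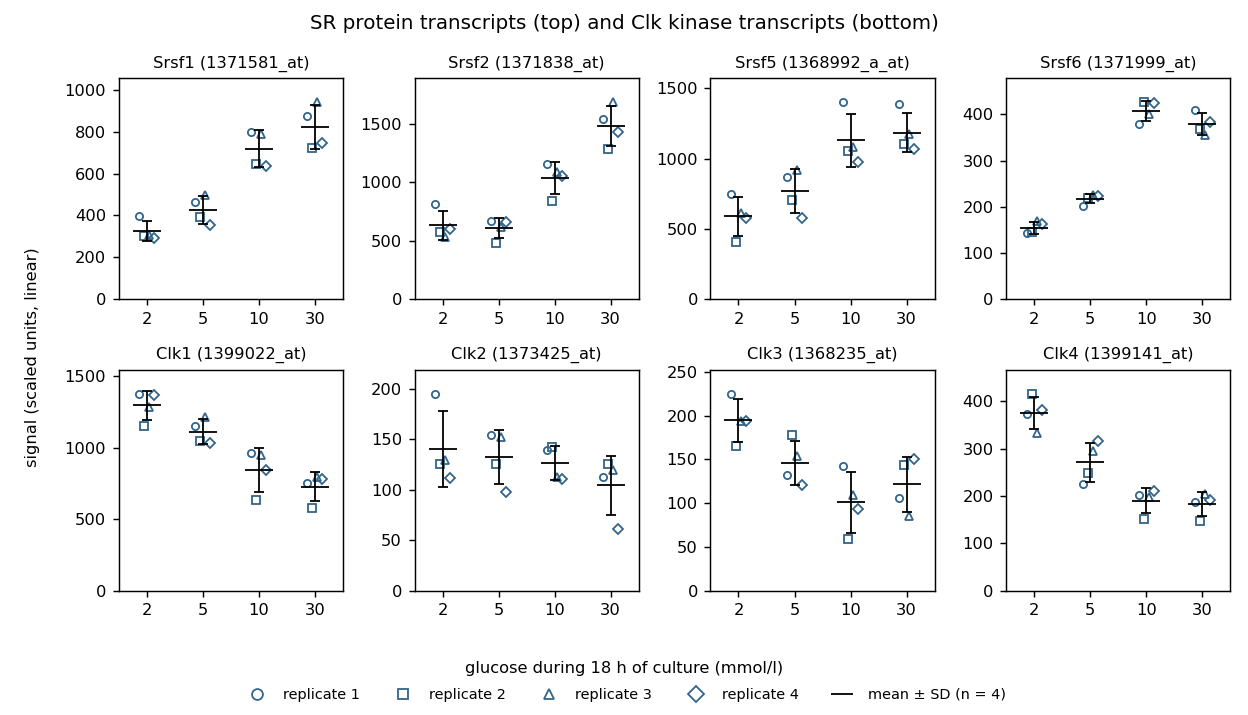
Signal (scaled units, linear axis from 0) on each array against glucose concentration for 4 SR protein transcripts (top) and the 4 Clk kinases (bottom). Marker shapes give the replicate number, and bars the mean ± SD of 4 arrays: Srsf6 averages 155 at 2 and 379 at 30 mmol/l, Clk4 376 at 2 and 183 at 30 mmol/l.

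Of the kinases that act on SR proteins, Clk1, Clk3 and Clk4 were lower at 30 over 2 mmol/l, where Srsf1, Srsf2, Srsf5 and Srsf6 were higher. At 10 over 5 mmol/l Clk1 and Clk4 passed as lower and Clk3 did not pass. Clk4 read 373.4, 416, 333.8 and 380.3 at 2 mmol/l, 226, 248.7, 294.5 and 316 at 5, 201.6, 150.3, 198.2 and 209.5 at 10, and 187, 147.1, 203.8 and 192.3 at 30 mmol/l. Arrays at 2 and 5 mmol/l did not overlap, nor did those at 5 and 10, whereas 10 and 30 mmol/l lay together. Clk4 was 1.43-fold lower at 10 over 5 mmol/l (log2 -0.51 ± 0.13, adjusted p = 0.010) and 2.07-fold lower at 30 over 2 mmol/l (-1.05 ± 0.13, adjusted p = 7.6e-06). At 5 over 2 mmol/l it passed only with the replicate block (log2 -0.48, adjusted p = 0.066 without the block and 0.015 with it).

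Clk1, the best studied of the 4, gave 1377.6, 1153.7, 1281.1 and 1366.6 at 2 mmol/l, 1149.5, 1049, 1215.1 and 1033.4 at 5, 963.1, 630.2, 949.9 and 839.9 at 10, and 750.3, 580.8, 796.7 and 779.7 at 30 mmol/l. The group means fell at each step, though 10 and 30 mmol/l overlapped. It was 1.79-fold lower at 30 over 2 mmol/l (log2 -0.84 ± 0.12, adjusted p = 3.3e-05) and 1.33-fold lower at 10 over 5 mmol/l (-0.41 ± 0.12, adjusted p = 0.024). This last call was lost without any one of 3 arrays (adjusted p up to 0.0867) and with no level filter (0.0552). Clk3 averaged 121 ± 31.3 at 30 mmol/l, 100.9 ± 35.01 at 10, 146 ± 25.5 at 5 and 195 ± 24.6 at 2 mmol/l. It was 2.01-fold lower at 10 over 2 mmol/l (adjusted p = 0.0021) and 1.64-fold lower at 30 over 2 mmol/l (adjusted p = 0.020, up to 0.0776 without 1 array). It passed neither at 10 over 5 mmol/l (log2 -0.59, adjusted p = 0.074) nor at 30 over 10 mmol/l (0.30, adjusted p = 0.52). Clk2 averaged 104 ± 29.4 at 30 mmol/l and 140 ± 37.5 at 2 mmol/l (log2 -0.45 ± 0.22, adjusted p = 0.12, and 0.021 with the replicate block).

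The start regions of these genes are given because Srsf and Clk transcripts moved apart while some of their promoters hold the same short words. Sequences are RefSeq's, build GRCr8, the 250 bases upstream of the annotated start. Capitals mark TGACGT (the core of the cAMP response element), CACGTG (the E-box) and CCAAT (the NF-Y box) on either strand, so that ACGTCA and ATTGG are TGACGT and CCAAT read on the opposite strand. TGACGTCA, the full palindrome, contains TGACGT.
Srsf1, chr10:73336248-73336497, + strand: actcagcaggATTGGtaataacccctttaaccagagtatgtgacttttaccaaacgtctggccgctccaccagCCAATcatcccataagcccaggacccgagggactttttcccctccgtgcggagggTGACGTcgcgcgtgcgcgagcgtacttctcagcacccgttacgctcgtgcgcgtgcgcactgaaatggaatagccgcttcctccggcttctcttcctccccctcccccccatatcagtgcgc
Srsf2, chr10:102554142-102554391, - strand: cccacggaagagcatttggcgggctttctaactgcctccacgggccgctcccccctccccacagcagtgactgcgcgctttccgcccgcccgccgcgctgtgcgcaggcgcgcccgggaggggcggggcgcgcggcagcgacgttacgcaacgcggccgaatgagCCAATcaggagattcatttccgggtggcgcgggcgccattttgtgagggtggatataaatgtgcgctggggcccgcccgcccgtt
Srsf6, chr3:172008822-172009071, + strand: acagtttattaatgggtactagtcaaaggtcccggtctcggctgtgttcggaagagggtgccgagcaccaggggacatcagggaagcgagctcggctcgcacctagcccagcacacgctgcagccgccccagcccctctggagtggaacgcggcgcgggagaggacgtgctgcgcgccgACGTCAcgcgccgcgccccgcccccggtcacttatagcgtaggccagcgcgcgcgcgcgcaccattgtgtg
Clk1, chr9:67453181-67453430, - strand: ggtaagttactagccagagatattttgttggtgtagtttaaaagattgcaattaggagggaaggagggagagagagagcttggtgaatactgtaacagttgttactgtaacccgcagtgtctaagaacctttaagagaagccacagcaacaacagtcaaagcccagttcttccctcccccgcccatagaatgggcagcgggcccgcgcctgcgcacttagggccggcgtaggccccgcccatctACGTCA
Clk4 (the second of 2 listed starts), chr10:36025490-36025739, + strand: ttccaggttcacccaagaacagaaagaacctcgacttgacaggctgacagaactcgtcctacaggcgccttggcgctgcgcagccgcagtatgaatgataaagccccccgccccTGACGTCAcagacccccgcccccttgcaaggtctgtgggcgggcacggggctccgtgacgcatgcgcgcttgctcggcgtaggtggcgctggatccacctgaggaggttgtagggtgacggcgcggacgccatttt

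TGACGT thus stands 122 bases upstream of the Srsf1 start, 71 upstream of Srsf6, 6 upstream of Clk1 and, as the full palindrome, from 136 bases upstream of this Clk4 start. The first listed Clk4 start has no TGACGT in its window and 2 CCAAT, 187 and 57 bases upstream. The Srsf2 window held 1 CCAAT and none of the other words. Of windows not printed, those of Clk2 and Clk3 held none of these words, and that of Srsf5 held TGACGT 40 bases upstream. RefSeq listed a promoter for 63 of 68 member genes, 68 entries in all. TGACGT occurred in 16 of these 68 (23.5%) and in 6.95% of all 33469 rat promoters of the same length, TGACGTCA in 2 (2.94%) and 1.59%, CACGTG in 6 (8.82%) and 5.59%, and CCAAT in 33 (48.5%) and 34.0%. By gene, with each gene placed by its brightest probe set at 30 over 2 mmol/l, TGACGT was found in 6 of 13 genes that rose, 5 of 14 that fell and 4 of 35 that did not pass. The promoters compared were not matched for base composition, and the split by call was not made for genes outside the families. These matches are letters in a window and no measure of binding.

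The hnRNP family, the largest of the 9, had 22 of 31 tested probe sets called by the F-test (71.0%, beside 41.8% of all tested probe sets), and moved in both directions. Hnrnpa3, an A/B type protein, rose on all 5 of its probe sets at 30 over 2 mmol/l. Its probe set with the smallest F-test p, 1388119_at, read 1719.4, 1857.1, 1853.2 and 1791.4 at 2 mmol/l, 1836.8, 1631.3, 1980.8 and 1631.5 at 5, 2578.8, 2638.5, 2801.8 and 2586.8 at 10, and 2714.5, 2778.5, 3165.2 and 2789.7 at 30 mmol/l. The arrays fell into a low level at 2 and 5 mmol/l and a high one at 10 and 30 mmol/l with no overlap between the levels. It was 1.5-fold higher at 10 over 5 mmol/l (log2 0.59 ± 0.07, adjusted p = 1.3e-05).

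Hnrnpa2b1, whose proteins bind RNA in splicing and transport, had the same step on its brightest probe set. Probe set 1398883_at averaged 874 ± 96.4 at 2 mmol/l, 853 ± 170 at 5, 1486 ± 212 at 10 and 1508 ± 244 at 30 mmol/l, and the arrays at 10 mmol/l did not overlap those at 5. It was 1.75-fold higher at 10 over 5 mmol/l (log2 0.81 ± 0.15, adjusted p = 0.00058). Of its 3 other probe sets, 1395561_at was higher at 10 over 5 mmol/l (log2 0.81, adjusted p = 0.0017), 1378543_at rose at 5 over 2 mmol/l already (log2 0.48, adjusted p = 0.021, up to 0.0817 without 1 array), and 1373540_at did not pass in any comparison (at 30 over 2 mmol/l adjusted p = 0.23, and 0.026 with the block). Hnrnpu, a scaffold attachment protein, gave on 1370171_at 548.3, 494.6, 511.6 and 571.4 at 2 mmol/l, 676, 493.2, 618.2 and 621.1 at 5, 1132.3, 952.2, 910.8 and 974.8 at 10, and 998, 707.8, 877.6 and 680.7 at 30 mmol/l. The 10 mmol/l arrays were the highest group, and overlapped only with 30 mmol/l. On this probe set Hnrnpu was 1.65-fold higher at 10 over 5 mmol/l (log2 0.73 ± 0.12, adjusted p = 0.00024). The brightest Hnrnpu probe set, 1370170_at, differed by 1.18-fold at that step (0.24 ± 0.10, adjusted p = 0.11, and 0.013 with the block), and 1372823_at by 0.07 ± 0.26 (adjusted p = 0.88). At 30 over 2 mmol/l both 1370170_at and 1370171_at passed as higher, the latter by 0.60 (log2, adjusted p = 0.00059).

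Hnrnpdl, a relative of AUF1, turned along the series. Its brightest probe set, 1372810_at, read 1720.2, 1840.2, 1498.3 and 1493 at 2 mmol/l, 1149.9, 1199.1, 1229.3 and 1320.1 at 5, 975.7, 885.7, 1006.4 and 1014.2 at 10, and 1516.9, 1380.7, 1742.6 and 1385.3 at 30 mmol/l. Every array at 2 and 30 mmol/l was above every array at 5 and 10 mmol/l, the only called member for which this held. It was 1.55-fold higher at 30 over 10 mmol/l (log2 0.63 ± 0.09, adjusted p = 0.00025) and 1.26-fold lower at 10 over 5 mmol/l (-0.34 ± 0.09, adjusted p = 0.010). Both ends exceeded the middle by 0.52 ± 0.06 (log2, adjusted p = 0.00010). The call at 5 over 2 mmol/l (log2 -0.42, adjusted p = 0.022) was lost with median centring (0.069) and without any one of 3 arrays (up to 0.0864). Its 2 other probe sets did not pass the F-test, though 1371333_at did with the block (adjusted p = 0.042, against 0.30 without it). Hnrnpd, which encodes AUF1 itself, a binder of AU-rich mRNA tails, averaged 862 ± 44.2 at 30 mmol/l, 786 ± 57.5 at 10 and 1142 ± 92.8 at 2 mmol/l and was 1.32-fold lower at 30 over 2 mmol/l (adjusted p = 0.0010).

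**Figure D3:**
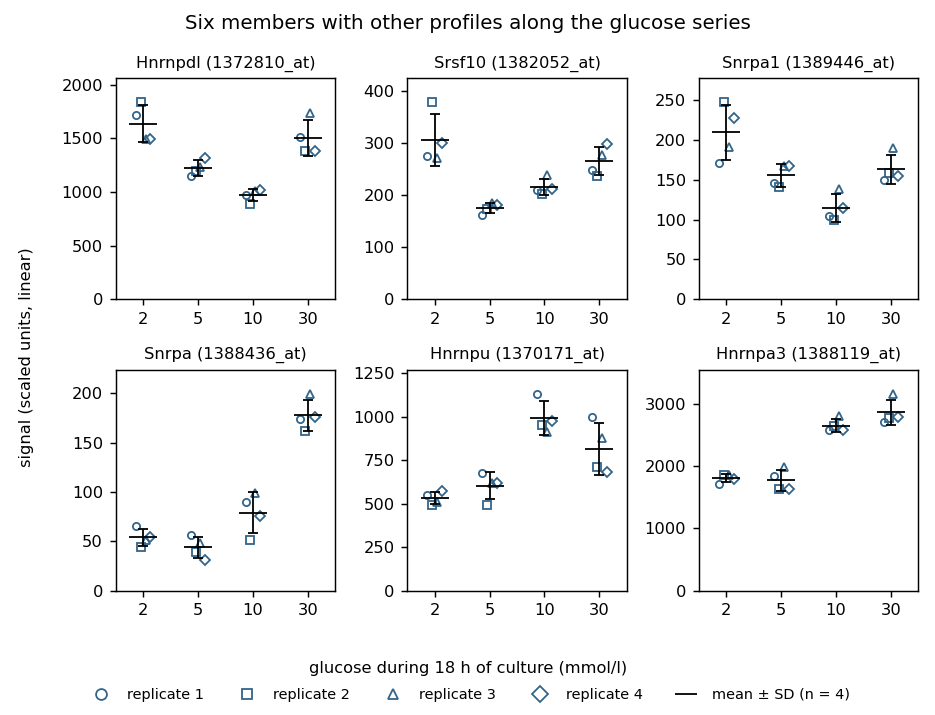
Signal (scaled units, linear axis from 0) on each array against glucose concentration for Hnrnpdl, Srsf10, Snrpa1, Snrpa, Hnrnpu and Hnrnpa3. Bars give the mean ± SD of 4 arrays and marker shapes the replicate number: Hnrnpdl averages 1638 at 2, 970 at 10 and 1506 at 30 mmol/l, and Snrpa 178 at 30 mmol/l.

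Hnrnph3, of the H and F group that binds G-rich runs, fell on 1 of its 2 probe sets. On 1375019_at it averaged 240 ± 31.7 at 30 mmol/l and 441 ± 64.8 at 2 mmol/l, 1.84-fold lower (log2 -0.88 ± 0.14, adjusted p = 6.8e-05), whereas 1395455_at averaged 303 ± 70.9 at 30 mmol/l and 327 ± 116 at 2 mmol/l (adjusted p = 0.87). Hnrnpf, of the same group, was 1.27-fold lower at 30 over 2 mmol/l (adjusted p = 0.00072). Hnrnpul1 fell at 10 over 5 mmol/l (log2 -0.61, adjusted p = 0.033), a call lost without any one of 6 arrays (up to 0.102). The other called members at 30 over 2 mmol/l were Hnrnpa0, Hnrnpab, Hnrnph1 and 1 of 3 Hnrnpa1 probe sets, all higher, and Hnrnpll and Hnrnpr, both lower. The 3 Hnrnpa1 probe sets differed: at 10 over 2 mmol/l 1375612_at was higher (log2 0.56, adjusted p = 0.014), 1372693_at lower (-0.55, adjusted p = 0.0086) and the brightest, 1387872_at, did not pass (-0.04, adjusted p = 0.82).

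The Luc7l genes encode U1-associated proteins that act in the choice of 5′ splice sites, and the 3 genes did not move together. Luc7l fell between 2 and 5 mmol/l. Its brightest probe set, 1392207_at, read 294.1, 297.9, 219.6 and 290.8 at 2 mmol/l, 142.9, 135.9, 154.3 and 114.8 at 5, 156.1, 101, 151.3 and 129.9 at 10, and 145.9, 152, 193.2 and 144 at 30 mmol/l. All arrays at 2 mmol/l were above all others. It was 2.01-fold lower at 5 over 2 mmol/l (log2 -1.01 ± 0.15, adjusted p = 0.0026). The direction was the same on each of the 3 scan days, whose arrays are those that gave the call. The Actb ratio given above also set the 2 mmol/l arrays apart, whereas the Gapdh ratio did not. A second probe set, 1392425_x_at, whose suffix marks probes that may also match other transcripts, was 1.80-fold lower at 5 over 2 mmol/l (adjusted p = 0.029, up to 0.118 without 1 of 6 arrays). The third, 1372838_at, averaged 120 ± 12.8 at 5 mmol/l and 151 ± 22.9 at 2 mmol/l and did not pass (log2 -0.33 ± 0.15, adjusted p = 0.29, and 0.033 with the block).

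**Figure D4:**
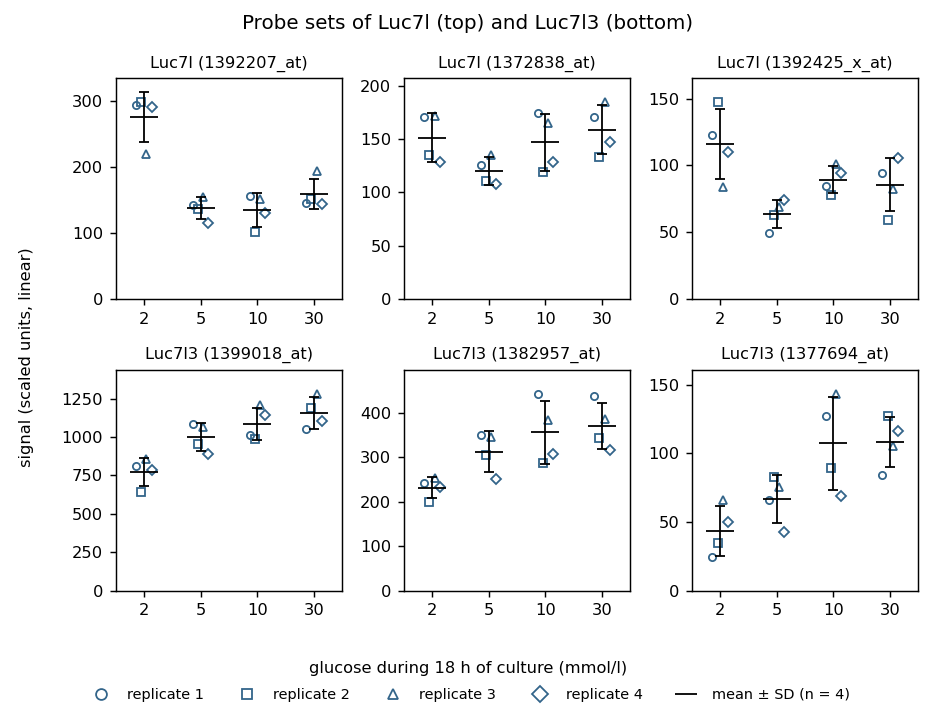
Signal (scaled units, linear axis from 0) on each array against glucose concentration for 3 probe sets of Luc7l (top) and 3 of Luc7l3 (bottom), with mean ± SD of 4 arrays. Luc7l 1392207_at averages 276 at 2 and 137 at 5 mmol/l, while 1372838_at reads between 107.7 and 184.5 over all arrays.

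The unequal change of the Luc7l probe sets was itself tested. For each gene with several tested probe sets, the log2 difference of each from the brightest was fitted over the 4 concentrations: 217 of 3910 such pairs on the whole array passed (5.55%), and 1 of 41 member pairs, Luc7l 1372838_at against 1392207_at (adjusted p = 0.0047). Relative to 1392207_at, 1372838_at gained 1.00 ± 0.16 (log2) at 10 over 2 mmol/l (adjusted p = 0.0015) and 0.87 ± 0.16 at 30 over 2 mmol/l (adjusted p = 0.0049). With the replicate block 8 of 41 member pairs passed (11.7% of all pairs), namely those of Luc7l, Hnrnpdl, Hnrnph3 and Hnrnpu with 1 pair each and of Hnrnpa2b1 and Srsf6 with 2. Where in the transcript each probe set lies was not examined.

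Luc7l3 rose on all 3 of its probe sets at 30 over 2 mmol/l. The brightest, 1399018_at, read 810.2, 640.3, 854.1 and 783 at 2 mmol/l, 1083.8, 952.5, 1065.5 and 891.2 at 5, 1013.6, 988.6, 1205.9 and 1144.5 at 10, and 1052.4, 1192.1, 1283.1 and 1102.2 at 30 mmol/l. The 2 mmol/l arrays were below all others, and the 3 higher concentrations overlapped. It was 1.5-fold higher at 30 over 2 mmol/l (log2 0.59 ± 0.10, adjusted p = 0.00014), and the differences of 1382957_at and 1377694_at were 0.67 and 1.39. At 5 over 2 mmol/l its adjusted p was 0.052, and 0.0058 with the block. Luc7l2 averaged 683 ± 75.4 at 30 mmol/l and 730 ± 49.2 at 2 mmol/l and did not pass (adjusted p = 0.50). It was higher at 10 over 5 mmol/l (log2 0.36, adjusted p = 0.022), a call lost with median centring (0.109).

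Snrpa and Snrpa1 encode proteins of the U1 and U2 particles. Snrpa, which encodes the A protein of U1 and binds a stem-loop of U1 RNA, had the largest rise of any member at 30 over 2 mmol/l. It read 65.2, 44.6, 51.5 and 54.6 at 2 mmol/l, 56.5, 39.3, 48.2 and 31 at 5, 89.8, 50.9, 99.1 and 75.5 at 10, and 173.9, 161.4, 199.6 and 175.6 at 30 mmol/l. The 30 mmol/l arrays stood far above the rest, and the other concentrations overlapped. At 10 over 5 mmol/l Snrpa passed as higher as well (log2 0.84, adjusted p = 0.0075). Snrpa was 2.32-fold higher at 30 over 10 mmol/l (log2 1.21 ± 0.21, adjusted p = 0.0018) and 3.31-fold higher at 30 over 2 mmol/l (1.73 ± 0.21, adjusted p = 4.2e-06).

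Snrpa1, which encodes the A′ protein of U2, was lowest at 10 mmol/l. It averaged 210 ± 34.5 at 2 mmol/l, 156 ± 14.3 at 5, 114 ± 17.3 at 10 and 163 ± 17.9 at 30 mmol/l, and no neighbouring pair of concentrations overlapped. It was 1.83-fold lower at 10 over 2 mmol/l (log2 -0.87 ± 0.14, adjusted p = 7.9e-05) and 1.43-fold higher at 30 over 10 mmol/l (0.52 ± 0.14, adjusted p = 0.026, up to 0.0926 without any one of 5 arrays). Its difference at 30 over 2 mmol/l (-0.35, adjusted p = 0.049) was lost without any one of 12 arrays (up to 0.160) and with quantile normalization (0.158). The Sm proteins form the ring that all these particles share. Of these, Snrpd1 rose on both probe sets at 30 over 2 mmol/l (log2 0.68 and 0.46, adjusted p = 0.0072 and 0.018). Snrpb, Snrpd2, Snrpd3, Snrpe, Snrpf and Snrpn did not pass the F-test. Snrpb2, which does not encode an Sm protein, fell at 10 over 5 mmol/l (log2 -0.45, adjusted p = 0.028) but did not pass the F-test either. With the replicate block 9 of 11 Snrp probe sets passed it in place of 4, with Snrpb, Snrpd2, Snrpd3 and Snrpe among them (adjusted p = 0.0265, 0.020, 0.010 and 0.0061).

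The U2-associated families had the smallest shares called by the F-test, 0 of 9 for Sf3b, 1 of 4 for Sf3a and 1 of 5 for U2af. No Sf3b probe set of 9 passed the F-test in limma (2 of 9 at an unadjusted p under 0.05, and 4 of 9 with the replicate block). Sf3b1, the largest subunit and a frequent target of cancer mutations, averaged on 1389840_at, the probe set with the smallest F-test p of the family, 1223 ± 65.5 at 2 mmol/l, 996 ± 102 at 5, 1151 ± 104 at 10 and 1088 ± 99.1 at 30 mmol/l (F-test adjusted p = 0.053). Sf3b2 on 1388614_at was lower at 30 over 2 mmol/l (log2 -0.22, adjusted p = 0.026). In Sf3a only the dim Sf3a1 probe set 1389328_at rose, 48.6 ± 8.54 at 30 mmol/l and 22.8 ± 11.4 at 2 mmol/l (log2 1.22, adjusted p = 0.0091), while the brighter Sf3a1 probe set did not pass (-0.09, adjusted p = 0.79). Of U2af, whose proteins read the polypyrimidine tract and the intron's last bases, U2af1 did not pass in any comparison. U2af1l4 averaged 228 ± 19.7 at 30 mmol/l and 287 ± 15.9 at 2 mmol/l (log2 -0.33, adjusted p = 0.014, and 0.0555 with quantile normalization). The U2af2 probe set 1395614_at was lower at 10 over 2 mmol/l (log2 -1.90, adjusted p = 0.023, up to 0.0721 without 1 of 2 arrays), and the brightest U2af2 probe set did not pass (-0.24, adjusted p = 0.24).

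The Prpf probe sets that passed between any pair of concentrations fell with glucose, apart from those of Prpf18 and Prpf40b, which rose at 10 over 5 mmol/l. Prpf3 and Prpf6 belong to the tri-snRNP, Prpf8 forms the core of the catalytic centre, and Prpf19 is a ubiquitin ligase of the spliceosome. Prpf6 read 589.4, 627.5, 642.4 and 625.6 at 2 mmol/l, 580.4, 560.9, 581.1 and 543.6 at 5, 397.2, 406.6, 529.2 and 477.4 at 10, and 419.3, 426.8, 402.8 and 406.5 at 30 mmol/l. Each of the first 3 groups lay below the one before without overlap. It was 1.26-fold lower at 10 over 5 mmol/l (log2 -0.33 ± 0.09, adjusted p = 0.0091) and 1.5-fold lower at 30 over 2 mmol/l (-0.59 ± 0.09, adjusted p = 3.2e-05).

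Prpf3 on 1384404_at averaged 47.7 ± 11.1 at 30 mmol/l and 98.98 ± 12.2 at 2 mmol/l, 2.10-fold lower (log2 -1.07 ± 0.19, adjusted p = 0.00017), the largest fall among tested members with a called difference at 30 over 2 mmol/l. Prpf19 averaged 1022 ± 45.1 at 2 mmol/l, 1016 ± 56.7 at 5, 763 ± 79.1 at 10 and 770 ± 45.1 at 30 mmol/l, a single step of 1.33-fold between 5 and 10 mmol/l (adjusted p = 0.00084). Prpf8 and Prpf39 were lower at 30 over 2 mmol/l (log2 -0.35 and -0.43, adjusted p = 0.0078 and 0.0022). Prpf4, Prpf38a and 3 of the 4 Prpf4b probe sets did not pass the F-test.

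Ordered by their group means, 14 of the 57 members that passed the F-test were higher at each step of the series and 10 were lower at each step. A further 24 went down and then up, 6 up and then down, and 3 did neither. These orders rest on the sign of each step, however small. Hnrnpa3 1388119_at, placed among the 24, differed by -0.03 at 5 over 2 mmol/l (log2, adjusted p = 0.89). The highest mean stood at 30 mmol/l for 26, at 2 mmol/l for 24, at 10 mmol/l for 6 and at 5 mmol/l for 1. Neither orders nor highest means were counted over all probe sets, so these numbers have no share beside them. Where both ends of the series (2 and 30 mmol/l) were set against its middle (5 and 10 mmol/l), 13 members passed, 11 higher and 2 lower (7.65% of all probe sets, 3.37% higher and 4.28% lower). The replicate block made that 19 members (16.7% of all). Without the block those higher included Hnrnpdl, Srsf10, Snrpa1, Snrpa and Luc7l 1392207_at, and those lower were Srsf6 1371999_at and Hnrnpa2b1 1378543_at, the last lost without any one of 13 arrays (adjusted p up to 0.0957).

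**Figure D5:**
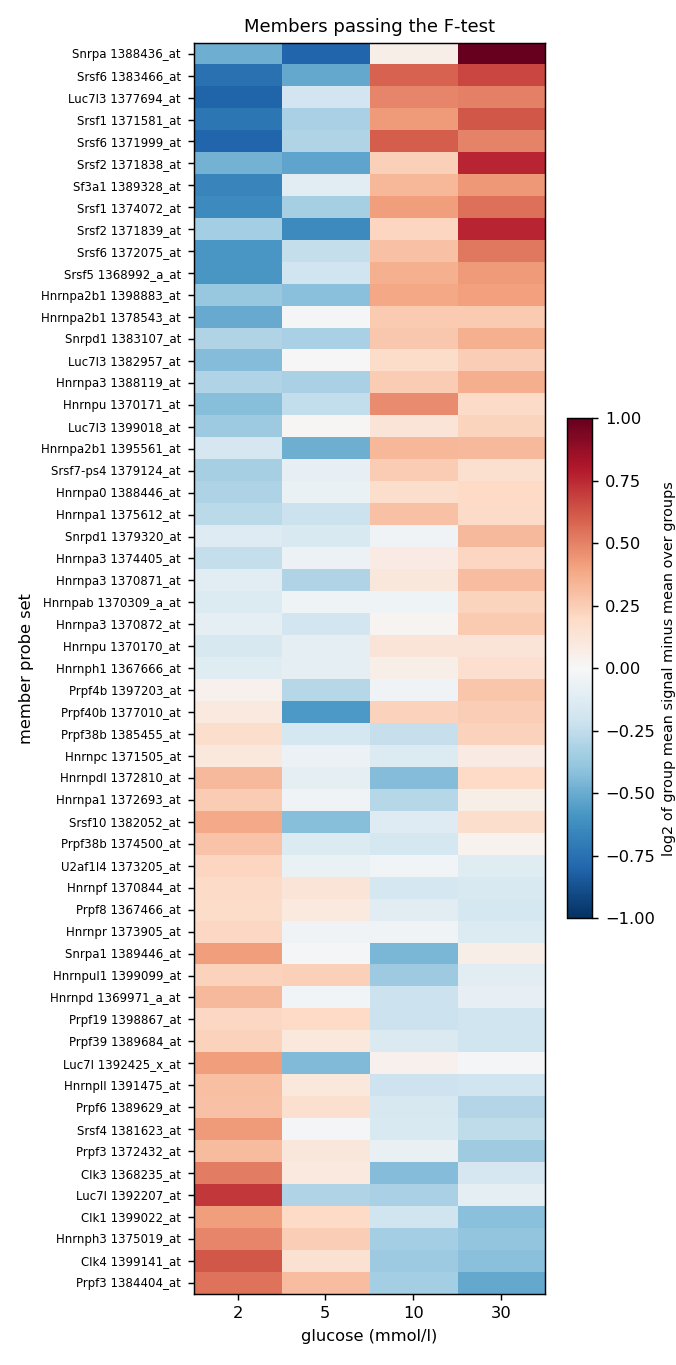
Group means of the 57 member probe sets that passed the F-test, as log2 minus the mean over the 4 concentrations, columns from 2 to 30 mmol/l and rows ordered by the difference at 30 over 2 mmol/l. Red is above and blue below the row's mean, with colours saturating at 1: rows at the top (Snrpa, Srsf6, Luc7l3, Srsf1) are red at 10 and 30 mmol/l or at 30 mmol/l, rows at the bottom (Prpf3, Clk4, Hnrnph3, Clk1) at 2 mmol/l.

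Other genes of RNA processing were taken as lists, each gene standing for its brightest single-symbol probe set. Of 58 tested other spliceosome components 22 were lower and 4 higher at 30 over 2 mmol/l (37.9% and 6.9%), against 25.0% and 17.2% of all genes, with a median of -0.23 (log2). Sart1, a tri-snRNP recruitment factor, averaged 318 ± 31.5 at 30 mmol/l and 562 ± 25.1 at 2 mmol/l (adjusted p = 3.5e-06), and Lsm8, of the ring on U6 RNA, rose by 0.91 (log2, adjusted p = 7.7e-07). Of 36 other SR-related and speckle proteins 10 were higher and 3 lower (27.8% and 8.33%), among them Zranb2, at 948 ± 93.9 at 30 mmol/l and 410 ± 30.3 at 2 mmol/l (adjusted p = 2.4e-08), and Sfpq, a paraspeckle protein (log2 1.19, adjusted p = 2.9e-06). Of 42 other regulators of alternative splicing 4 were higher and 6 lower (under the block, 9 each way). Of 12 SR protein kinases and import factors 3 were higher and 1 lower (under the block, 3 each way). The shares of all genes by direction were not computed under the block. Of 21 genes of the exon junction complex, export and nonsense-mediated decay 4 were higher and 7 lower. In that last list Upf3a fell (log2 -0.86, adjusted p = 2.7e-06) and its paralog Upf3b rose (0.50, adjusted p = 9.4e-06), both adaptors of nonsense-mediated decay, and Alyref, an export adaptor, rose (0.81, adjusted p = 2.3e-06).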

How the data were processed

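Transcripts were measured on 16 Affymetrix arrays. The deposited values are signal intensities on a linear scale, 1 per probe set, made with GCOS per the submitters' processing notes (version not given in the sources used here) and scaled by the authors to a common trimmed mean, as their values show. Fluidics module, scan day and chip lot were read from the run files per the file headers. Signals below 3.4 (10th percentile) were raised to that floor before log2, which alters only dim probe sets. Non-control probe sets in the upper 60% by mean log2 (signal above 25.4) were tested, 18625 in all. limma 3.58.1 in R 4.3.3 fitted group means (12 residual degrees of freedom) with a trended eBayes step, and p-values are two-sided and Benjamini-Hochberg adjusted over all 18625. Gene symbols are those of the platform annotation. An SE is that of a log2 difference. The number of arrays limits the precision.

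Same-numbered arrays deviated together (24 pairs, r = 0.136 to 0.434; 72 other pairs, -0.264 to 0.130), so the titles' replicate numbers pair the arrays, and blocked values (9 residual degrees of freedom) stand beside counts they moved by over 1.5 times and named probe sets whose stated call they changed. Other alternatives were median centring, quantile normalization, no floor, no level filter, a scan day block, log2 of the value plus 50, and omission of each array. The fitting code was tested on simulated data. The families, whose members the symbol then fixed, and the lists were chosen with earlier results of these data known. Probe sets were named by F-test p (12 smallest, and the smallest per family), by called size without overlap (up to 6 each way per comparison), all of Luc7l and Clk, genes with called pairs, and 3 genes per other list. Others are given to account for their family, after their values were seen.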

Additional observations from a re-analysis of the deposited data

Results flagged for a closer look

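Of 152 groups of 4 arrays (38 named probe sets at 4 concentrations), 8 held an array far from the other 3, and chance flags about 1 in 20 such groups. Hnrnpa2b1 1398883_at read 1169.6 in replicate 1 at 10 mmol/l, below its nearest neighbour at 1574.6. Hnrnpa3 1388119_at read 3165.2 in replicate 3 at 30 mmol/l, above the next at 2789.7. Hnrnph3 1375019_at read 306 in replicate 4 at 10 mmol/l, above the next at 234. Luc7l 1392207_at read 219.6 in replicate 3 at 2 mmol/l, below the next at 290.8, and 193.2 in replicate 3 at 30 mmol/l, above the next at 152. Prpf19 read 837 in replicate 1 at 30 mmol/l, above the next at 751.5. Sf3a1 1389328_at read 61.3 in replicate 4 at 30 mmol/l, above the next at 45.2. Srsf1 1371581_at read 395.2 in replicate 1 at 2 mmol/l, above the next at 306.7.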

How the results depend on the processing

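The member counts by the F-test, at 10 over 2 and 30 over 2 mmol/l and for the ends against the middle stayed within 1.5 times under each alternative run. The other counts moved further under some. The replicate block gave 21 members at 5 over 2 mmol/l in place of 8, 48 at 10 over 5 in place of 30, 15 at 30 over 10 in place of 5, and 8 member pairs in place of 1, and it ended none of the 138 called values of named probe sets. Scan day as a block gave 15, 8 and 6 for 5 over 2, 30 over 10 and the pairs. Median centring gave 5 at 5 over 2 mmol/l, no level filter 3 at 30 over 10, quantile normalization 3 pairs and log2 of the value plus 50 gave 8 pairs. Omitting 1 array gave 3 to 9 members at 5 over 2 mmol/l (3 without replicate 2 at 2 mmol/l or replicate 3 at 5 mmol/l), 2 to 5 at 30 over 10 (2 without replicate 2 at 10 mmol/l or replicate 3 at 30 mmol/l) and 1 to 2 pairs. The cause was not tested. Of the 138 values 113 kept their call in all 16 omissions and 25 lost it in at least 1, and 8 lost it with median centring, 3 with quantile normalization and 15 with no level filter. No direction reversed in any of these. Between settings the median log2 difference of all probe sets moved by at most 0.08 (centring, 10 over 5 mmol/l, by -0.08). Dim members such as Sf3a1 1389328_at lie close to the level cut, so their differences are less certain.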
